A study of Mus musculus with 6 samples.

Results

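The genes described here encode 3 families of guidance proteins, the Slit ligands and Robo receptors, the netrins with their Unc5 and DCC-family receptors, and the ephrins with their Eph receptors. They were taken as the 34 listed gene symbols of these families, and all 34 had a row among the 24951 genes of the deposited counts. RNA was sequenced from CD31-selected lung cells of mouse pups at postnatal day 5, with 3 control and 3 mutant libraries. All pups carried floxed Smad4 alleles (Smad4 f/f). The mutants also carried Cdh5-CreERT2, a tamoxifen-inducible Cre recombinase driven by an endothelial promoter, and the controls had no Cre, so an effect of Cre itself cannot be told apart from that of Smad4 loss. The labels call the controls wildtype, give no dose or day of tamoxifen, and in one sentence name HHTf/f and HHTiECKO mice without explaining the names. They describe the libraries as independent biological samples, and the names of all 6 libraries carry the same tag, lit14, which the labels do not explain.

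Guidance proteins were first known for steering axons, and blood vessels use the same ligands and receptors. Slits are secreted and bind Robo receptors such as Robo1 and Robo2. Robo4 is the endothelial member of the Robo family. Netrins bind DCC, neogenin and the Unc5 receptors, and Unc5b is the Unc5 receptor of the endothelium. Ephrins are held on the cell surface and meet Eph receptors on a neighbouring cell, so that both cells receive a signal. Ephrin-B2, the product of Efnb2, marks arterial endothelium and its receptor EphB4 marks venous endothelium, and the pair is known for keeping arteries and veins apart. Loss-of-function variants of the human EPHB4 gene are a known cause of vascular malformations with arteriovenous shunts.

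Library depth ranged from 14093564 to 21113926 reads assigned to genes. Levels are given as CPM, counts scaled to a common library size with TMM factors, on which 3 reads were worth 0.140 to 0.214 CPM. Smad4 stood at 177 to 188 CPM in the controls and at 72.9 to 94.2 CPM in the mutants, without overlap (log2 fold change -1.09, edgeR adjusted p = 0.000604). The 10 endothelial markers Pecam1, Cdh5, Tek, Kdr, Tie1, Cldn5, Erg, Emcn, Egfl7 and Esam summed to 8765 to 9739 CPM in the controls and to 9192 to 9524 CPM in the mutants. Of these only Tek passed the test, lower in the mutants, and not without control replicate 3 or mutant replicate 2 (edgeR adjusted p = 0.0540 and 0.0760). Other cells were also present. The 10 epithelial markers summed to 2210 to 4080 CPM and 2885 to 3279 CPM, the 11 fibroblast markers to 968 to 1457 CPM and 1127 to 1728 CPM, and the 13 smooth muscle and pericyte markers to 289 to 434 CPM and 421 to 541 CPM in controls and mutants. Of the 34 markers in these lists, 0 passed the test with edgeR and 1 had an unadjusted p under 0.05. That gene was the pericyte gene Rgs5, named after its values were seen, at 38.3 ± 8.01 and 79.2 ± 24.7 CPM (SD, n = 3 each). Slits, netrins and several Eph receptors are also known from these cell types, and the part of such cells in the values below was not tested.

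In the mutants the Eph receptor gene Ephb1 rose 3.43-fold, and the receptor genes Robo4 and Unc5b rose 1.35-fold and 1.39-fold. The arterial ligand gene Efnb2 and the receptor gene Epha4 fell 1.36-fold and 1.37-fold, while the venous receptor gene Ephb4 did not pass the test. The test was edgeR's quasi-likelihood test of mutant against control over 14934 genes, with a call at a Benjamini-Hochberg adjusted p under 0.05. Of the 34 genes, 32 were tested, and 5 of the 32 were called, 3 higher and 2 lower. That is 15.6% of the 32, where 3.27% of all tested genes were called, 1.93% higher and 1.34% lower. The genes were chosen with earlier results of these data known, so the shares in this paragraph describe the list and do not test it. DESeq2 called 6, where it called 4.85% of all genes it tested, and limma-voom called 4, where it called 2.96%. An unadjusted p under 0.05 was found for 11 of the 32, and for 14.0% of all tested genes. The control and mutant libraries did not overlap in 9 of the 32, or 28.1%, against 20.6% of all tested genes. Of the 9, 3 were higher and 6 lower in the mutants, where 11.6% and 9.04% of all tested genes were. The median log2 fold change of the 32 was -0.06, against -0.00 over all tested genes, with 12 above 0 and 20 below. Slit1 and Dcc were too low to be tested. Only the call of Ephb1 was kept in all 6 fits that left out a library. Those of Robo4, Unc5b, Efnb2 and Epha4 ended in 4, 5, 4 and 5 of these fits.

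**Figure D1:**
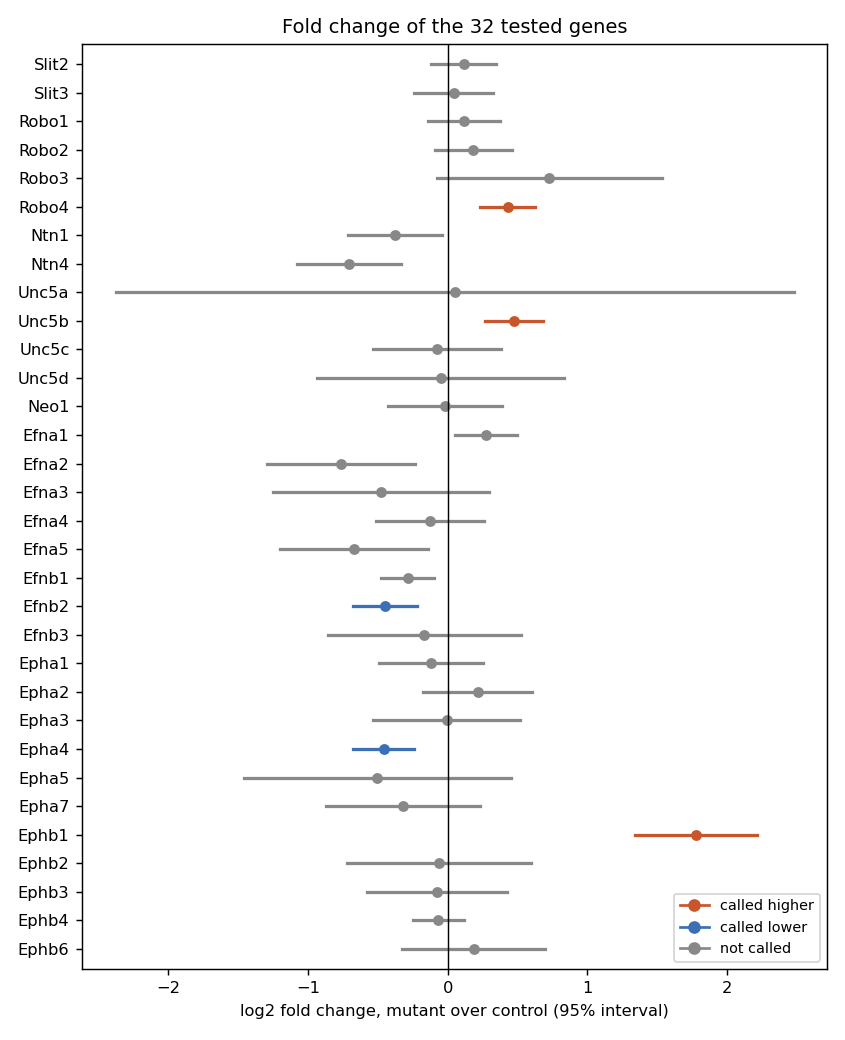
Log2 fold change of mutant over control (x axis) for each of the 32 tested genes (y axis), with lines for the 95% interval from the edgeR fit. Ephb1 lies at 1.78, far to the right of the others, Robo4 and Unc5b are the other genes called higher, and Efnb2 and Epha4 are called lower.

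Per kilobase of annotated exon, most of the message of each receptor family came from 1 gene. In the controls Robo4 made up 92.7% ± 0.559 of the summed Robo level, Unc5b 88.5% ± 3.08 of the Unc5 level, Epha2 85.1% ± 4.31 of the EphA level and Ephb4 93.2% ± 1.02 of the EphB level (SD, n = 3). Efna1 made up 91.9% ± 0.843 of the ephrin-A level, and Efnb2 and Efnb1 made up 63.0% ± 2.58 and 36.1% ± 2.89 of the ephrin-B level. In CPM per kilobase the control order began with Efna1 at 115 ± 5.49, Efnb2 at 99.1 ± 7.10, Ephb4 at 88.4 ± 3.31 and Epha2 at 87.4 ± 20.3. Efna1 did not overlap Efnb2 and Efnb2 did not overlap Ephb4 in the control libraries, whereas Ephb4 and Epha2 overlapped. Robo4 at 56.9 ± 3.90 and Efnb1 at 56.6 ± 2.92 came next and overlapped each other, followed by Unc5b at 33.7 ± 2.59 and Ntn1 at 23.5 ± 4.88. The other 26 genes lay below 10. The lengths are those of all exons of a gene in GENCODE M21 together, so a gene with rarely used exons, such as Slit2 with 25433 bases, reads low on this scale.

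**Figure D2:**
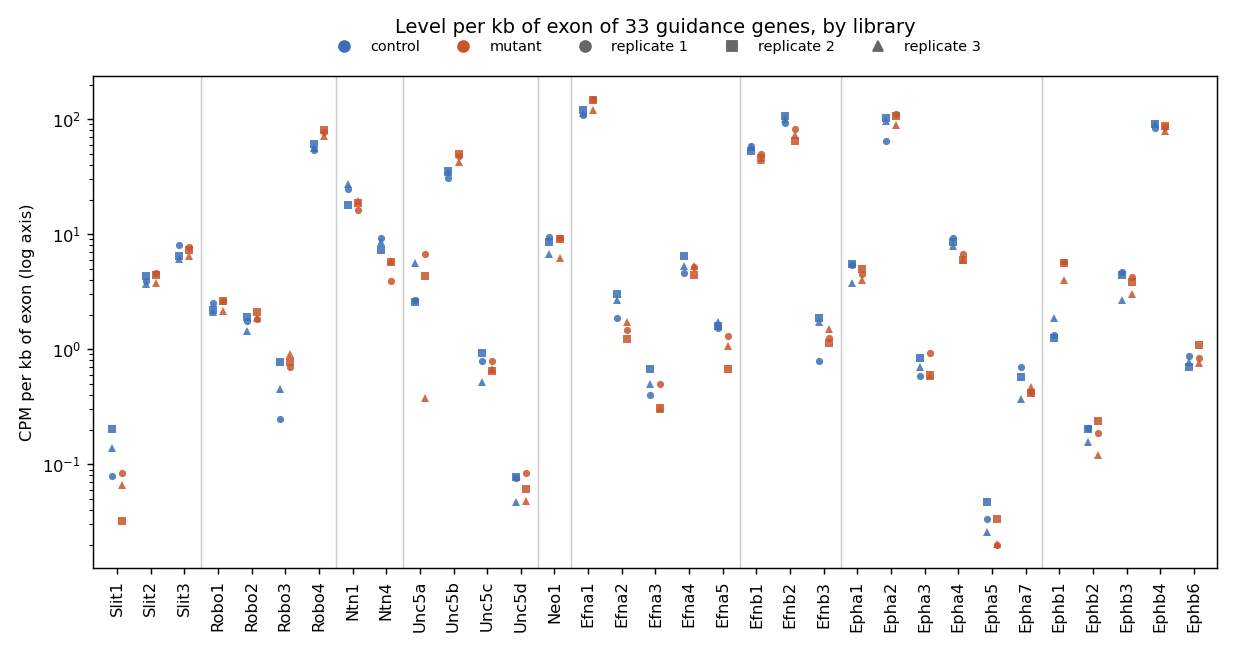
CPM per kilobase of exon (y axis, log scale) of 33 of the genes (x axis) in each control (blue) and mutant (orange) library, with grey lines between families and Dcc, which has libraries at 0, left out. Efna1, Efnb2, Ephb4, Epha2, Robo4, Efnb1, Unc5b and Ntn1 stand above the rest.

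Among the ligands of the Slit family, the levels of Slit2 and Slit3 overlapped between the groups. Slit2 stood at 98.8, 109 and 93.0 CPM in control replicates 1, 2 and 3 and at 117, 113 and 95.2 CPM in mutant replicates 1, 2 and 3. Its fold change was 1.08 with a 95% interval of 0.922 to 1.27 (edgeR adjusted p = 0.681). Slit3, which is also made by fibroblasts and smooth muscle, had a fold change of 1.03 with an interval of 0.848 to 1.25. Slit1, known mainly from the nervous system, had 3 to 17 reads per library.

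Of the 4 receptor genes of this family, Robo4 rose and 3 did not pass the test. Robo4, the endothelial Robo that is known for stabilising vessels, stood at 283, 324 and 298 CPM in control replicates 1, 2 and 3. In mutant replicates 1, 2 and 3 it stood at 413, 428 and 379 CPM. Every mutant library lay above every control library. The log2 fold change of Robo4 came to 0.43 ± 0.09 (SE, edgeR adjusted p = 0.0263). Leaving out control replicate 1, control replicate 3, mutant replicate 1 or mutant replicate 2 raised this edgeR adjusted p to 0.0697, 0.0897, 0.0897 and 0.127. Robo1 and Robo2, the broadly expressed receptors that bind Slits, had fold changes of 1.09 and 1.14, with intervals of 0.908 to 1.30 and 0.938 to 1.38. Robo3 is known for its part in axon crossing at the midline. It stood at 1.68, 5.34 and 3.09 CPM in control replicates 1, 2 and 3 and at 4.83, 5.27 and 6.24 CPM in mutant replicates 1, 2 and 3, with overlap (fold change 1.66, interval 0.947 to 2.90, edgeR adjusted p = 0.415). Robo4 (chr9:37401897-37415115, plus strand) and Robo3 (chr9:37415669-37433246, minus strand) face each other in GENCODE M21 on GRCm38, with 553 bases between their ends. The library kit does not mark strand, so reads of the far more abundant Robo4 that ran into Robo3 could not be told apart from its own.

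Both netrin genes had lower means in the mutants, and neither passed the test. Ntn4, which encodes a netrin of basement membranes, stood at 34.8, 27.2 and 32.1 CPM in control replicates 1, 2 and 3. The levels in mutant replicates 1, 2 and 3 were 14.5, 21.5 and 21.9 CPM, all below the lowest control. Its log2 fold change was -0.70 ± 0.17 (SE), just over the threshold with edgeR (adjusted p = 0.0539). Ntn4 was called lower in 2 of the 13 alternative fits. They were DESeq2 (adjusted p = 0.00360) and no filter on low counts (edgeR adjusted p = 0.0241). It was not called when any library was dropped. The edgeR adjusted p then ran from 0.0624 without mutant replicate 3 to 0.148 without mutant replicate 2. Ntn1, the diffusible netrin that binds Unc5b and DCC, stood at 156, 113 and 173 CPM in control replicates 1, 2 and 3 and at 102, 117 and 122 CPM in mutant replicates 1, 2 and 3. Control replicate 2 lay inside the mutant range. Its fold change was 0.769 with an interval of 0.609 to 0.971 (edgeR adjusted p = 0.284). Ntn1 was called lower in 1 of the 13 alternative fits, the one without control replicate 2 (edgeR adjusted p = 0.0384). Without mutant replicate 2 the edgeR adjusted p was 0.615.

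Of the 4 Unc5 receptor genes, Unc5b rose and the others did not pass. Unc5b, a receptor of endothelial tip cells and arteries, stood at 192, 221 and 219 CPM in control replicates 1, 2 and 3 and at 299, 314 and 267 CPM in mutant replicates 1, 2 and 3. No library of one group reached the other group. Unc5b had a log2 fold change of 0.48 ± 0.09 (SE, edgeR adjusted p = 0.0216). The call was kept without mutant replicate 3 and ended without each of the others, with an edgeR adjusted p of 0.0557, 0.0581 and 0.0542 without control replicates 1, 2 and 3 and of 0.0731 and 0.112 without mutant replicates 1 and 2. Robo4 and Unc5b, whose proteins are known to bind each other, were both lowest in control replicate 1 among the controls. Both were highest in mutant replicate 2 among the mutants, a match picked after the values were seen. Efna1 and Epha2 were also lowest in control replicate 1, and were highest in mutant replicate 1. Whether Robo4 and Unc5b vary together was not tested. Unc5b is a gene of the minus strand (chr10:60762593-60831581, GRCm38).

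Unc5a, known from neurons, varied more between libraries than between groups. It stood at 11.2, 10.8 and 23.4 CPM in control replicates 1, 2 and 3 and at 27.9, 18.1 and 1.56 CPM in mutant replicates 1, 2 and 3. Mutant replicate 3, with 32 reads, lay far below every other library, and the 95% interval of the fold change ran from 0.193 to 5.57. Exons of Unc5a overlap those of Hk3 in GENCODE M21, and Hk3 stood at 3.59 to 5.61 CPM over the 6 libraries, so the lowest values of Unc5a are uncertain. Unc5c had a fold change of 0.949 with an interval of 0.690 to 1.31. Unc5d was near the limit of detection, with 9 to 15 reads per library. Of the DCC-family receptors, Neo1, which encodes neogenin, stood at 58.6 to 82.1 CPM in the controls and at 53.7 to 80.3 CPM in the mutants (fold change 0.988, interval 0.745 to 1.31). Dcc had at most 4 reads in any library.

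Of the 5 ephrin-A ligand genes, 0 were called by edgeR. An unadjusted p under 0.05 was found for 3 of them, against 14.0% of all tested genes. Of these, Efna1 had a higher mean in the mutants, and Efna2 and Efna5 had lower means. Efna1, an inflammation-induced ephrin of the endothelium and the main ligand of EphA2, stood at 200.1, 220.2 and 209 CPM in control replicates 1, 2 and 3. In mutant replicates 1, 2 and 3 it stood at 275, 268 and 220.0 CPM. Mutant replicate 3 lay inside the control range, and the log2 fold change was 0.28 (edgeR adjusted p = 0.222). Efna2 and Efna5 were lower in every mutant library than in any control. Efna2 ranged from 4.01 to 6.41 CPM in the controls and from 2.64 to 3.66 CPM in the mutants (log2 fold change -0.76, edgeR adjusted p = 0.149). Efna5, which is known to sort axons by position, ranged from 6.21 to 6.90 CPM in the controls and from 2.70 to 5.22 CPM in the mutants (log2 fold change -0.67, edgeR adjusted p = 0.218). Efna3 and Efna4 had log2 fold changes of -0.48 and -0.13 with overlapping groups. Efna1, Efna3 and Efna4 lie next to each other on the minus strand of chromosome 3, with 32756 bases between Efna1 and Efna3 and 10424 bases between Efna3 and Efna4.

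Of the 6 EphA receptor genes, Epha4 fell and 5 did not pass. Epha4, a receptor that binds ephrins of both classes, stood at 74.0, 69.1 and 63.4 CPM in control replicates 1, 2 and 3 and at 53.6, 48.3 and 48.3 CPM in mutant replicates 1, 2 and 3. All mutant libraries lay below the lowest control. For Epha4 (chr1:77367185-77515088, minus strand, GRCm38) the log2 fold change was -0.46 ± 0.10 (SE, edgeR adjusted p = 0.0328). The call was kept without control replicate 3 (edgeR adjusted p = 0.0475). Without control replicates 1 and 2 the edgeR adjusted p was 0.0820 and 0.0975, and without mutant replicates 1, 2 and 3 it was 0.0586, 0.157 and 0.126. Epha2, the EphA receptor with the highest level per length here and a receptor of ephrin-A1 in angiogenesis, stood at 300.4, 477 and 449 CPM in control replicates 1, 2 and 3. In mutant replicates 1, 2 and 3 it stood at 515, 494 and 416 CPM. Control replicate 1 stood apart below the rest, and the fold change of 1.16 had an interval of 0.887 to 1.52 (edgeR adjusted p = 0.629). Epha1, Epha3, Epha5 and Epha7 had log2 fold changes of -0.12, -0.01, -0.50 and -0.32, with overlapping groups. Epha5 had 6 to 12 reads per library. Exons of Epha1 overlap those of the zyxin gene Zyx, which stood at 174 to 231 CPM, so Epha1 at 14.7 to 21.8 CPM is uncertain.

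**Figure D3:**
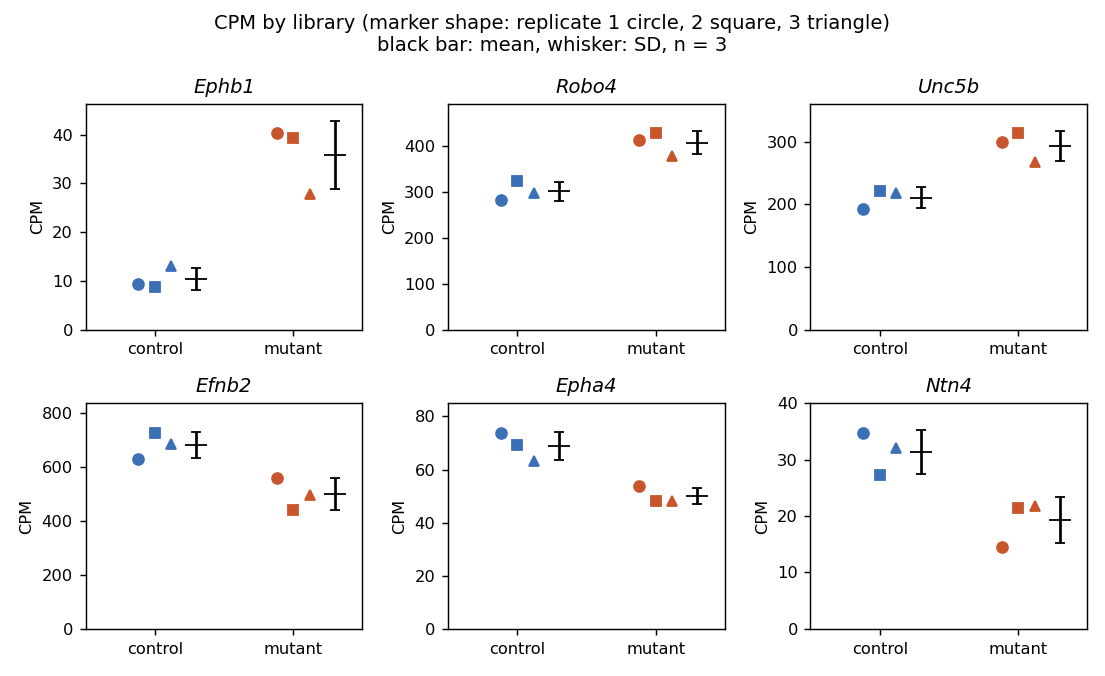
CPM (y axis, from 0) in each control and mutant library for the 5 called genes and for Ntn4, with the mean and SD of each group in black. The groups do not overlap in any of the 6 panels, and the distance between them is largest relative to the spread for Ephb1.

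Of the 5 EphB receptor genes, Ephb1 rose and 4 did not pass. Ephb1, a receptor of ephrin-B ligands known from neurons and from sprouting endothelium, stood at 9.33, 8.76 and 13.1 CPM in control replicates 1, 2 and 3. In mutant replicates 1, 2 and 3 it stood at 40.4, 39.4 and 27.9 CPM, and the lowest mutant was far above the highest control. This gave a log2 fold change of 1.78 ± 0.20 (SE) and a 95% interval of 1.34 to 2.22 (edgeR adjusted p = 0.00157). It was called in each of the 13 alternative fits, with a log2 fold change of 1.68 to 1.98 and an adjusted p of at most 0.0178. Per kilobase of exon Ephb1 made up 1.56% ± 0.345 of the EphB level in the controls and 5.40% ± 0.747 in the mutants (SD, n = 3 each). In CPM per kilobase it went from 1.48 ± 0.334 to 5.12 ± 0.995, against 84.4 ± 4.34 for Ephb4 in the mutants. An exon of the gene model Gm26846, not used here, overlaps Ephb1 (chr9:101922128-102354693, minus strand, GRCm38). Ephb2 and Ephb3, which are known from epithelia and the nervous system, and Ephb6, whose kinase domain is inactive, had fold changes of 0.957, 0.948 and 1.14. Their intervals ran from 0.606 to 1.51, from 0.669 to 1.34 and from 0.798 to 1.62. In both groups Ephb3, Neo1 and the summed fibroblast, epithelial and mesothelial markers were lowest in replicate 3. Ephb3 stood there at 17.7 and 20.1 CPM, Neo1 at 58.6 and 53.7 CPM, the fibroblast markers at 968 and 1127 CPM, the epithelial markers at 2210 and 2885 CPM and the mesothelial markers at 32.6 and 50.9 CPM in control and mutant. The part of these cells in the levels of Ephb3 and Neo1 was not tested.

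All 3 ephrin-B ligand genes had a negative log2 fold change, and only Efnb2 was called. Of the 32 tested guidance genes 20 were negative, and of all 14934 tested genes 7535 were. Efnb1, on the X chromosome, stood at 203, 184 and 199 CPM in control replicates 1, 2 and 3 and at 171, 157 and 152 CPM in mutant replicates 1, 2 and 3. These values did not overlap, and the log2 fold change of -0.29 ± 0.08 (SE) did not pass the test (edgeR adjusted p = 0.119). In both groups replicate 1 was male and replicates 2 and 3 were female by Xist and Y-linked genes, so the sexes were split alike. Efnb3 ranged from 2.52 to 5.98 CPM in the controls and from 3.58 to 4.78 CPM in the mutants, with overlap.

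Of the arteriovenous pair, Efnb2 (chr8:8617434-8661242, minus strand, GRCm38) fell in the mutants and Ephb4 (chr5:137350109-137378669, plus strand) was at overlapping levels. Efnb2 stood at 629, 727 and 683 CPM in control replicates 1, 2 and 3 and at 559, 440 and 496 CPM in mutant replicates 1, 2 and 3. Every mutant lay below every control. The means were 679.5 ± 48.6 and 498 ± 59.5 CPM (SD, n = 3 each), a log2 fold change of -0.45 ± 0.10 (SE) and a 95% interval of -0.68 to -0.22. This lies at the edge of the threshold (edgeR adjusted p = 0.0471, with DESeq2 0.00584). The call ended with limma-voom (adjusted p = 0.0518), with sex as a covariate (edgeR adjusted p = 0.0658), without control replicates 2 and 3 (0.175 and 0.113) and without mutant replicates 2 and 3 (0.204 and 0.113). Ephb4 stood at 392, 420 and 418 CPM in control replicates 1, 2 and 3 and at 398, 408 and 369 CPM in mutant replicates 1, 2 and 3. Its fold change was 0.955 with a 95% interval of 0.843 to 1.08 (edgeR adjusted p = 0.771), so a fall of the size fitted for Efnb2 lies outside the interval. Zan, whose exons overlap those of Ephb4, stood at 4.39 to 14.1 CPM.

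The ratio of the 2 genes within a library does not depend on how libraries are scaled. The log2 of the Efnb2 count over the Ephb4 count was 0.68, 0.79 and 0.71 in control replicates 1, 2 and 3 and 0.49, 0.11 and 0.43 in mutant replicates 1, 2 and 3. In linear terms there were 1.60, 1.73 and 1.63 reads of Efnb2 for each read of Ephb4 in the controls and 1.40, 1.08 and 1.34 in the mutants. All 3 mutant ratios lay below all 3 control ratios, and mutant replicate 2 stood lowest. The mean log2 ratio went from 0.73 ± 0.058 to 0.34 ± 0.20 (SD, n = 3 each), a difference of -0.38. An exact two-sided permutation test over the libraries gave p = 0.1, the smallest that 3 against 3 can give. The ratio compares counts and is not corrected for gene length.

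**Figure D4:**
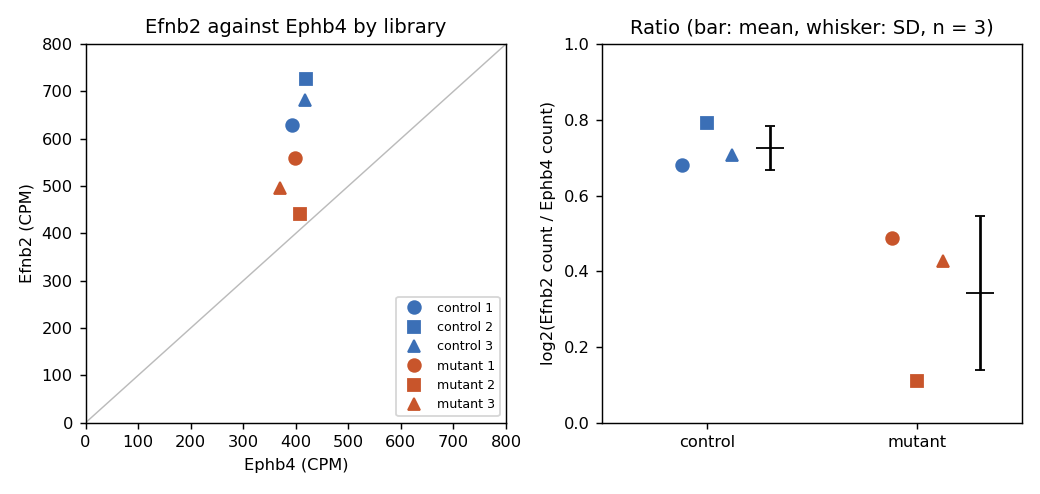
Left, Efnb2 against Ephb4 in CPM for each library, with a grey line where both are equal. Right, the log2 ratio of their counts by group, with mean and SD in black. The mutant points lie below the control points on the Efnb2 axis at similar Ephb4, and mutant replicate 2 is nearest to the line.

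Other arterial genes did not move together. Of 8 arterial markers, which do not include Efnb2, 3 fell, 0 rose and 5 did not pass, where 1.34% of all tested genes were called lower and 1.93% higher. The markers were listed with earlier results of these data known. The connexin gene Gja4 (log2 fold change -0.91), the transcription factor gene Sox17 (-0.34) and the chemokine gene Cxcl12 (-1.97) fell. Among the 5 that did not pass, the log2 fold change was 0.37 for the Notch ligand gene Dll4, 0.16 for Jag1, 0.01 for Gja5, -0.06 for Hey1 and -0.57 for Bmx. Every mutant library lay above every control for Jag1 and below every control for Bmx. The 8 summed to 1736 to 1867 CPM in the controls and to 1433 to 1574 CPM in the mutants, without overlap. Without Cxcl12, a sum chosen after seeing the data, they came to 1193 to 1429 CPM and 1256 to 1462 CPM, which overlap. The largest part of that sum was Dll4, at 414 to 638 CPM in the controls and 552 to 776 CPM in the mutants. The call of Sox17 ended in each fit that left out a library (edgeR adjusted p of 0.0658 to 0.160), and that of Cxcl12 without control replicate 1 (edgeR adjusted p = 0.0501). Of the 6 venous markers 0 were called by edgeR, and 2 had an unadjusted p under 0.05, against 14.0% of all tested genes. The 6 summed to 316 to 379 CPM in the controls and to 329 to 353 CPM in the mutants. In these bulk samples fewer arterial cells and less arterial RNA per cell cannot be told apart. Efnb2 is also known from smooth muscle and pericytes, whose markers summed to 289 to 434 CPM in the controls and to 421 to 541 CPM in the mutants, with overlap, and their part in the level of Efnb2 was not tested.

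The sequence just before the transcription start is shown for the gene with the largest change, Ephb1, for the arteriovenous pair, and for Epha4, which fell with Efnb2. SMAD proteins are known to bind the short motif CAGAC and the GC-rich motif GGCGCC, and GTCTAGAC is the palindromic site first selected for SMAD4. Each was searched on both strands in the 250 bases before the start in the RefSeq promoter table for GRCm38.p6. A match is marked in capitals, and GTCTG is CAGAC read from the other strand. The 4 windows lie at chr9:102354694-102354943, chr8:8661243-8661492 and chr1:77515089-77515338 on the minus strand for Ephb1, Efnb2 and Epha4, and at chr5:137349859-137350108 on the plus strand for Ephb4, and each is written 5′ to 3′ toward the start.
Ephb1: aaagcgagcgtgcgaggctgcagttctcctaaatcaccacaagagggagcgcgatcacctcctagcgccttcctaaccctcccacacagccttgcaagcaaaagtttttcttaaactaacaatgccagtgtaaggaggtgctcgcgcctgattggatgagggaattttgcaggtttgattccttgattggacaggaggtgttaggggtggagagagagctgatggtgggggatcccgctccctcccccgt
Efnb2: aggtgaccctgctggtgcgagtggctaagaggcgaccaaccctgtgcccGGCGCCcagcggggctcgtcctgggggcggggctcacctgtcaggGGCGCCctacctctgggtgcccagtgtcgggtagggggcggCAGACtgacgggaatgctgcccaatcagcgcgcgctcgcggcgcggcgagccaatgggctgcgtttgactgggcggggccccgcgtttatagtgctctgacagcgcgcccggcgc
Ephb4: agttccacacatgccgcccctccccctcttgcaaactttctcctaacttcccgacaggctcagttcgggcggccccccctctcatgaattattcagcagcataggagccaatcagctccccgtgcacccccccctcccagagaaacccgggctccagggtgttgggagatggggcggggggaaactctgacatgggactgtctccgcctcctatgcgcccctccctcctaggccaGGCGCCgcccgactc
Epha4: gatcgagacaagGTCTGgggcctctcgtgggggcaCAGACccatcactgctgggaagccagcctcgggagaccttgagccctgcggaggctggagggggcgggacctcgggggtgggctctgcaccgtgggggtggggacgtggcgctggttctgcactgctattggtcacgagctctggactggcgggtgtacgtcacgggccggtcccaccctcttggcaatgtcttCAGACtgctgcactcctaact
The Ephb1 window held 0 of the 3 motifs. The Efnb2 window held GGCGCC beginning 201 and 156 bases before the start and CAGAC 115 bases before it. The Ephb4 window held GGCGCC 15 bases before the start. The Epha4 window held CAGAC, on either strand, at 238, 215 and 21 bases before the start. Of the other called genes, Robo4 had CAGAC once and Unc5b had 0 matches. Genes that were not called had matches as well. Efna3 had 4 of CAGAC and 1 of GGCGCC in a window and 0 in its other window. Efna2 had 2 of CAGAC and 1 of GGCGCC, whereas Epha2 and Efna5 had 0 matches. Of all 32817 windows in the table, 42.2% held CAGAC, 9.59% held GGCGCC and 0.168% held GTCTAGAC. The table had 34 windows for 29 of the 34 guidance genes, some of them for several starts of 1 gene, and of these 16 held CAGAC, 10 held GGCGCC and 0 held GTCTAGAC. The motif GGCGCC holds only G and C, and the windows of the whole table were not matched to those of the guidance genes in GC content. GC content was 54% in the Ephb1 window, 72% in the Efnb2 window, 64% in the Ephb4 window and 66% in the Epha4 window. These counts describe letters in a short window, and binding was not measured.

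Genes known to act with these ligands and receptors were taken from a list of 54 companions, of which 45 were tested. Of these 1 rose, 3 fell and 41 did not pass, with a median log2 fold change of -0.06. Over all tested genes 1.93% were called higher and 1.34% lower. The companions were listed with earlier results of these data known, so their count is not a test of the pathways. Of 14 tested companions of Slit and Robo, Plxna1, a plexin that also binds a Slit fragment, fell from 453 ± 17.7 to 268 ± 21.8 CPM (log2 fold change -0.76, SE 0.09, edgeR adjusted p = 0.00157). Enah, an actin regulator acting below Robo, went from 41.1 ± 1.72 to 36.0 ± 2.13 CPM without passing (edgeR adjusted p = 0.414). Of 12 tested companions of netrins and Unc5, Adgrl1, of the latrophilin family of receptors for FLRT proteins, which also bind Unc5, fell from 336 ± 35.3 to 239 ± 16.0 CPM (log2 fold change -0.49, edgeR adjusted p = 0.0246). Ntng2, a membrane-bound netrin, went from 14.9 ± 0.949 to 9.71 ± 1.47 CPM and was called with DESeq2 (adjusted p = 0.0184) but not with edgeR (adjusted p = 0.0671). The call of Adgrl1 ended without control replicates 2 and 3 (edgeR adjusted p = 0.0979 and 0.0830) and without mutant replicates 2 and 3 (0.138 and 0.0648).

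Of 19 tested companions of ephrins and Ephs, 1 fell, 1 rose and 17 did not pass. Tiam1, a Rac activator that binds ephrin-B and EphA proteins, fell from 55.3 ± 3.07 to 30.8 ± 2.28 CPM (log2 fold change -0.84, SE 0.10, edgeR adjusted p = 0.00184). Plxna1 and Tiam1 kept their calls in every alternative fit. Sh2d3c, an adaptor that binds Eph receptors, rose from 183 ± 33.3 to 294 ± 39.0 CPM (log2 fold change 0.69, edgeR adjusted p = 0.0419). Its call ended without control replicates 2 and 3 (edgeR adjusted p = 0.0654 and 0.0738) and without mutant replicates 1 and 2 (0.114 and 0.218). Rasa1, a Ras inhibitor that acts below EphB4 and is the other known gene of the human malformations named above, was chosen for mention after its values were seen. It went from 174 ± 7.46 to 155 ± 9.36 CPM, with a log2 fold change of -0.17 (edgeR adjusted p = 0.414).

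**Figure D5:**
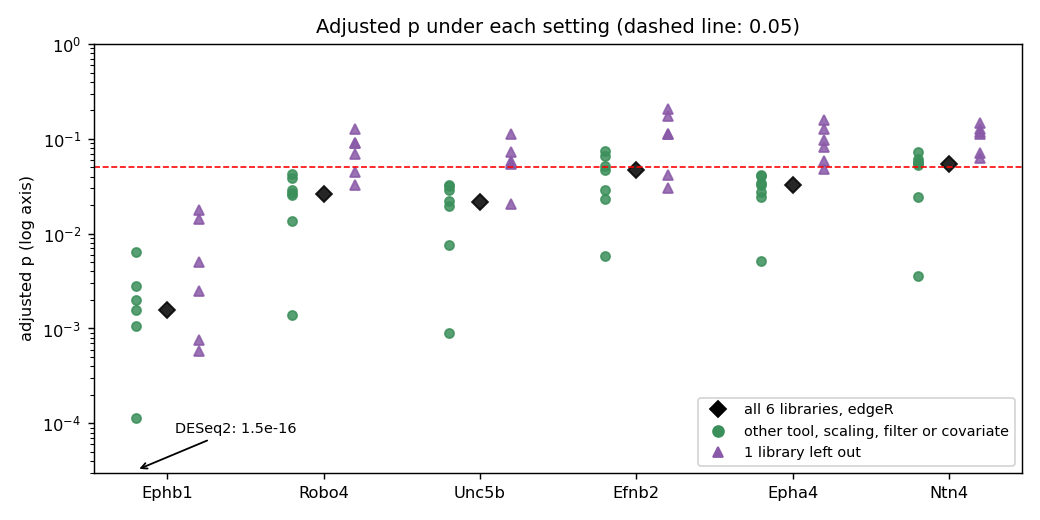
Benjamini-Hochberg adjusted p (y axis, log scale) of 6 genes (x axis) in the edgeR fit of all 6 libraries (black), under another tool, scaling, filter, block or covariate (green) and with 1 library left out (purple). Ephb1 stays under the dashed line at 0.05 throughout, with its DESeq2 value off the axis at the arrow, and the other 5 genes cross it.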

How the data were processed

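Counts were read for 3 control and 3 mutant libraries of CD31-selected lung cells, made from polyadenylated RNA per the labels' protocols. The authors deposited whole-number counts per gene symbol, without normalization, with mm10 as the build and DESeq2, in a role not stated, per the submitters' processing notes. The kit (TruSeq RNA v2, per the labels' protocols) does not mark strand. Aligner, counter and annotation: not given in the sources used here. Reads with no feature (53.9% to 58.2% of a library; the 95% exact binomial interval extends by at most 0.0166 points and reflects counting error alone) and ambiguous reads (0.288% to 0.366%) were left out.

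In R 4.3.3 with edgeR 4.0.16, filterByExpr kept 14934 of 24951 genes. TMM factors, robust quasi-likelihood fits and a two-sided F test were used, with all p-values adjusted over all tested genes. The SE is the size of the log2 fold change divided by the square root of F. Libraries were taken as replicates as labelled, and every pair within a group differed by more than sampling noise (chi-square per degree of freedom at least 12.3). Alternatives were DESeq2 1.42.0, limma-voom (limma 3.58.1), RLE and upper-quartile factors, no filter, a replicate block, sex as a covariate and leaving out each library. To check their code, the fits were also run on counts simulated from the means and dispersions of these data, with known changes added. Such counts cannot show whether a call rests on 1 library.

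The guidance genes and the lists of companions and markers were chosen with earlier results of these data known. Named genes were all 34 guidance genes, Smad4, called companions and markers, the most abundant markers, and the 2 companions of smallest p where under 2 of a pathway were called. 1 companion was matched by an older symbol. Lengths and coordinates are from GENCODE M21 (GRCm38, the assembly of mm10) and promoter sequences from RefSeq (GRCm38.p6).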

Additional observations from a re-analysis of the deposited data

How the results depend on the processing

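The log2 fold changes kept their direction in all 13 alternatives for Ephb1, Robo4, Unc5b, Efnb2, Epha4 and Ntn4. The number of genes called was 488 (288 higher, 200 lower), and 747, 445 and 302 with DESeq2. Leaving out a library gave 211 to 428 genes called, 131 to 257 higher and 80 to 204 lower, fewest without mutant replicate 2. When a library was left out, the number of guidance genes called higher, 3 as reported, ranged over 1 to 3, and the number called lower, 2 as reported, over 0 to 1. The 1 called lower was Efnb2 without control replicate 1 or mutant replicate 1, Epha4 without control replicate 3, and Ntn1, with neither of those 2, without control replicate 2. The count of those lower was 1 with limma-voom, 1 with sex as a covariate and 1 with the replicate block, in each case without Efnb2. The 4 called companions became 2 to 4 when a library was left out.

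The difference in log2 ratio of Efnb2 to Ephb4 was -0.46 to -0.27 when a library was left out, smallest without mutant replicate 2. The mean of the differences between same-numbered libraries is -0.38 by arithmetic, and 1 added count could hardly move counts this large, so neither is a check. An exact sign-flip test on the same-numbered differences gave p = 0.25, the smallest it can give. Same-numbered libraries had deviations correlated at -0.0149, 0.0156 and 0.198 for replicates 1, 2 and 3. The value for replicate 3 was the highest of any control with any mutant, whereas control replicate 1 correlated best with mutant replicate 2 (0.135). These correlations do not settle whether the replicate numbers pair the libraries. Within each group the replicate numbers follow the order of the numbers in the library names, and those names give no pairing. The values from same-numbered libraries therefore rest on a pairing that the names do not show. In the fit with the replicate block the edgeR adjusted p of Efnb2 was 0.0745.

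Genes that were not called could change sign. Unc5a was 0.05 as reported, -0.74 with limma-voom, -0.23 with the replicate block and -0.11 with sex as a covariate. When a library was left out the log2 fold change ran from -0.66 to 0.60 for Unc5a, -0.039 to 0.18 for Slit3, -0.28 to 0.10 for Unc5c, -0.29 to 0.14 for Unc5d, -0.15 to 0.15 for Neo1, -0.48 to 0.040 for Efnb3, -0.27 to 0.13 for Epha3, -0.30 to 0.17 for Ephb2 and -0.30 to 0.078 for Ephb3. The cause was not tested. Genes with under 20 reads in most libraries, Slit1, Unc5d, Dcc and Epha5, are limited by depth.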

Other observations

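The 5 lymphatic markers summed to 1064 to 1251 CPM in the controls and to 1410 to 1467 CPM in the mutants, without overlap. Without Lyve1, a sum chosen after seeing the data, they came to 408 to 509 CPM and 459 to 500.4 CPM, which overlap. Lyve1, a hyaluronan receptor that is also made by lung capillaries and macrophages, rose (log2 fold change 0.44, edgeR adjusted p = 0.0166), and 4 did not pass, with log2 fold changes of 0.15 for Flt4, 0.07 for Pdpn, -0.13 for Prox1 and -0.42 for Reln. Leaving out control replicate 2, mutant replicate 1 or mutant replicate 2 gave Lyve1 an edgeR adjusted p of 0.0622, 0.0700 and 0.0904. The 6 neural and glial markers, of interest because many guidance genes are known from neurons, summed to 2.80 to 4.13 CPM in the controls and 3.24 to 4.83 CPM in the mutants. The 4 mesothelial markers summed to 32.6 to 72.8 CPM and 50.9 to 55.7 CPM, and the 10 immune markers to 867 to 1065 CPM and 862 to 951 CPM. The 6 platelet and red cell markers summed to 54.0 to 73.1 CPM and 49.8 to 70.5 CPM, with Hbb-bs and Hba-a1 at 0 in every library. Of these last 26 markers edgeR tested 20 and called 0, and 3 had an unadjusted p under 0.05, against 14.0% of all tested genes.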
